A study of Mus musculus with 6 samples.

Results

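Lymphatic endothelial nuclei of the mouse tibial periosteum were selected from 6 single-nucleus RNA-seq libraries by the UMIs (unique molecular identifiers, 1 per captured transcript) of Prox1, Mmrn1 and Flt4. Nuclei were kept when they held 200 to 5000 genes, with mitochondrial transcripts below 2% of UMIs and those of ribosomal proteins below 1.5%. A nucleus was called lymphatic with a sum of at least 3 UMIs over these genes, at least 2 of them detected, and no UMI of the leukocyte gene Ptprc. The rule found 61 of 8073 kept nuclei, out of 13551 barcodes. The study profiled the periosteum, the tissue sheath of bone, before and after an open, non-stabilized fracture of the tibia in wild-type C57BL6 mice, 12 weeks old, with males and females mixed. Uninjured periosteum was scraped from flushed tibias of 4 mice per pool and gave 2 libraries. Periosteum was collected with the hematoma from pools of 4 to 9 mice at day 3 (2 libraries), day 5 (1 library) and day 7 (1 library) after fracture. Because the mice were pooled, spread between animals cannot be seen, and p-values measure only the spread between libraries.

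Lymphatic vessels take up fluid, macromolecules and immune cells from tissues and return them to the blood. Their endothelium is specified by the transcription factor Prox1 and grows in response to VEGF-C acting on its receptor Flt4 (VEGFR-3), while Mmrn1 encodes the secreted protein multimerin-1. Blind-ended lymphatic capillaries are marked by the hyaluronan receptor Lyve1 and attract dendritic cells with the chemokine Ccl21, and collecting vessels carry valves whose endothelium is rich in Foxp2. Bone itself is classically described as poor in lymphatics, whereas the periosteum is known to contain them.

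The rule alone fixed the levels of Prox1, Mmrn1 and Flt4, which are therefore only described. All 3 genes were detected in 44 nuclei, Prox1 with Flt4 in 7, Mmrn1 with Flt4 in 5 and Prox1 with Mmrn1 in 5. The 61 nuclei held a median of 3 Prox1 UMIs (range 0 to 23), 3 Mmrn1 UMIs (0 to 57) and 2 Flt4 UMIs (0 to 18). At the threshold, 4 nuclei had a sum of exactly 3, of which 3 also had a UMI of Reln, which encodes the secreted glycoprotein reelin. Another 4 nuclei with 2 of the genes stopped at a sum of 2, of which 2 had Reln and 2 met the blood endothelial rule given below. Genes that the rule did not use were detected to differing extents. Reln was detected in 51 of the 61 nuclei, the VEGF-C co-receptor Nrp2 in 49, the pan-endothelial adhesion gene Pecam1 in 48, the guidance gene Sema3d in 42, Ccl21a in 32, Pdpn (podoplanin) in 30 and the transcription factor Tbx1 in 30. Lyve1 was detected in 15, and other genes known from lymphatics were rarer, with Sox18 in 7, Nts, Gata2 and Foxc2 in 4 each and Hhex in 2.

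The nuclei were spread very unevenly over the libraries. Uninjured replicates 1 and 2 gave 6 and 30, day 3 replicates 1 and 2 gave 1 and 3, day 5 gave 19 and day 7 gave 2. A lymphatic nucleus held a median of 3490 UMIs, from 524 to 14231. The 4 fractured-tibia libraries thus held 25 lymphatic nuclei in all, 19 of them from 1 library. No lymphatic barcode recurred in another library, and 4 further barcodes met the 3-gene criterion outside the limits on genes, mitochondrial and ribosomal UMIs.

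Promoter sequences were read for 3 genes that were found together in these nuclei: Mmrn1 of the rule, and Reln and Ccl21a, which it did not use. Each runs from 250 bases before to 50 bases after a transcription start in RefSeq (GRCm38.p6), 5′ to 3′ on the strand of the gene, and capitals mark either of the motifs found. The motifs searched on both strands were AACAAT (the core letters bound by SOX factors, among them Sox18, an inducer of Prox1), AGGTCA (the half-site of nuclear receptors such as Nr2f2) and GGAAGT (read by ETS factors).
Mmrn1, chr6:60944067-60944366, plus strand: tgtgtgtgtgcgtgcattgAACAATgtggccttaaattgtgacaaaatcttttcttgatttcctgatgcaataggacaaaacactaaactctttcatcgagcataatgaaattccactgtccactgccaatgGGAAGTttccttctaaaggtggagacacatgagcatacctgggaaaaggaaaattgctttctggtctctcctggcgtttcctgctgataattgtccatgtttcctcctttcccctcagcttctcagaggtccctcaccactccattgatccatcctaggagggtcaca
Reln, chr5:22344656-22344955, minus strand: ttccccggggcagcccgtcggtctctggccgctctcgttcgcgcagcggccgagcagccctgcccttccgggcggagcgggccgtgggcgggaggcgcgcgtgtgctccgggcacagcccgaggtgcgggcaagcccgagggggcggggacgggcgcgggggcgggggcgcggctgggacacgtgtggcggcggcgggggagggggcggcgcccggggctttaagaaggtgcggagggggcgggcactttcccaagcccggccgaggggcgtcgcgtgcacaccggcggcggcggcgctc
Ccl21a, chr4:42773942-42774241, minus strand: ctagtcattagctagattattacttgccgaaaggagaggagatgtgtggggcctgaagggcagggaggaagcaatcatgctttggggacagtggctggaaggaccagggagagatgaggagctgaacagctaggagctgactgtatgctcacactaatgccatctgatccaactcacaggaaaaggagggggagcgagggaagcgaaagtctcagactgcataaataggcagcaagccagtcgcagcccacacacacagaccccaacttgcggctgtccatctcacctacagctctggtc
The Mmrn1 window held 1 AACAAT and 1 GGAAGT, and the Reln and Ccl21a windows held none of the 3 motifs. Of all 32851 mouse promoter windows of this length, 10.7% held AACAAT, 16.3% AGGTCA and 23.8% GGAAGT, so a match by itself is common.

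The share of lymphatic nuclei was compared between fractured and uninjured tibias. Endothelial nuclei were the lymphatic nuclei plus blood endothelial nuclei, which had 3 or more UMIs over Pecam1, Cdh5 and Ptprb, 2 of the 3 detected, no Ptprc, and did not meet the lymphatic rule. There were 620 blood endothelial nuclei. Lymphatic nuclei did not have to reach this limit on Pecam1, Cdh5 and Ptprb, and 33 of the 61 did. The 2 classes in this share were thus selected on unlike terms. Lymphatic nuclei made up 4.48% and 12.3% of endothelial nuclei in uninjured replicates 1 and 2, 3.85% and 7.32% in the day 3 replicates, 9.74% at day 5 and 4.76% at day 7. The fractured and uninjured libraries overlapped. The fractured mean was 6.42% ± 2.66 (SD, n = 4) and the uninjured mean 8.39% ± 5.53 (SD, n = 2), a difference of -1.97 percentage points (exact two-sided permutation test over libraries, p = 0.667; the smallest p that 4 against 2 libraries allow is 0.133). Without uninjured replicate 2 the difference turned to 1.94 percentage points, so its direction rested on that library.

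Among all kept nuclei the lymphatic share was 0.932% (95% exact binomial interval 0.343 to 2.02) and 2.54% (1.72 to 3.6) in the uninjured replicates. It was 0.133% (0.00336 to 0.738) and 0.174% (0.036 to 0.509) in the day 3 replicates, 0.784% (0.473 to 1.22) at day 5 and 0.148% (0.0179 to 0.534) at day 7. Both uninjured values lay above all 4 fractured values, although the intervals of uninjured replicate 1 and day 5 overlapped widely. After thinning each nucleus to 1000 UMIs, with both rules at 2 UMIs, the order changed, with 0.26% (1 nucleus) in uninjured replicate 1 below 0.729% at day 5, and the difference in means was -0.923 percentage points (exact two-sided permutation p = 0.267). The mean was 1.74% ± 1.14 (SD, n = 2) in uninjured and 0.31% ± 0.317 (SD, n = 4) in fractured libraries, a difference of -1.43 percentage points, and the exact two-sided permutation p of 0.133 is the smallest this design allows. The difference was -0.622 without uninjured replicate 2 and -2.23 without uninjured replicate 1. The matrices came from 2 versions of Cell Ranger. Within version 6.0.0 the share was 0.932% uninjured against 0.784% at day 5 and 0.148% at day 7, and within version 7.1.0 it was 2.54% uninjured against 0.133% and 0.174% at day 3. The denominator takes in hematoma cells after fracture only, and fewer lymphatic cells and a larger number of other nuclei cannot be told apart.

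**Figure D1:**
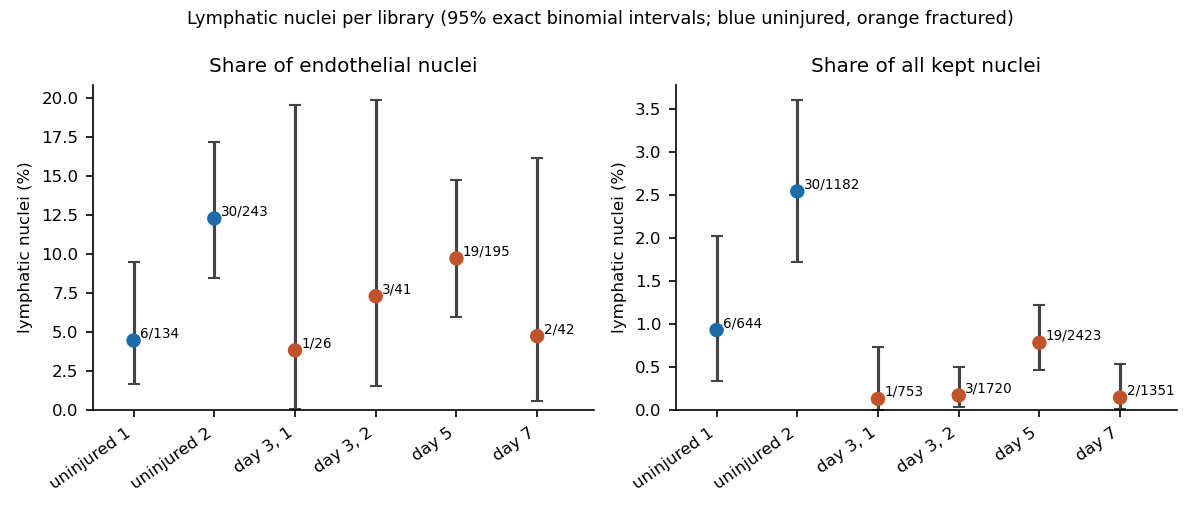
Lymphatic nuclei as a percentage of endothelial nuclei (left) and of all kept nuclei (right) in each library, with the numbers of nuclei and 95% exact binomial intervals, which cover counting error only. On the left the uninjured (blue) and fractured (orange) libraries overlap, and on the right both uninjured libraries, at 0.932% and 2.54%, lie above the fractured ones.

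The lymphatic nuclei were not uniform. The chemokine gene Ccl21a was found in 12 of the 15 nuclei with Lyve1 and in 20 of the other 46. The mechanosensitive channel gene Piezo2 was found in 14 of the 15 and in 23 of the 46, and Reln and all 3 rule genes were found in all 15. Foxp2, a transcription factor gene of collecting vessels and valves, was detected in 26 nuclei. It was found in 4 of the 15 nuclei with Lyve1 and in 22 of the other 46, and 22 of its 402 UMIs were in nuclei with Lyve1. Of the 26 nuclei, 11 also had Ccl21a and 12 had Piezo2. Whether Foxp2 and Lyve1 mark separate nuclei was not tested. The nuclei with Lyve1 held a median of 4753 UMIs and those with Foxp2 but not Lyve1 a median of 5485, so both sets were deeper than the median lymphatic nucleus. The numbers of nuclei with each gene differed between libraries. Uninjured replicate 2 had 15 nuclei with Foxp2 and 6 with Lyve1, and day 5 had 7 and 6. Uninjured replicate 1 had 3 and 0, while all 3 nuclei of day 3 replicate 2 had Lyve1 and 1 of them Foxp2. Nuclei without a UMI may still express a gene at this depth.

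A further small set met the rule without several other lymphatic genes. In 5 nuclei neither Mmrn1 nor Reln was detected, and these held 70 of the 72 UMIs of Vwf, the von Willebrand factor gene of blood endothelium, and 33 of the 36 UMIs of Flt1 (VEGFR-1). Of these nuclei 4 came from the uninjured libraries and had 7161 to 12343 UMIs each. Those with 24 and 43 Vwf UMIs had Pecam1 at 18 and 22 UMIs, and 3 of the 4 had Foxp2 at 11 to 31 UMIs. Lyve1, Ccl21a and Sema3d were at 0 in all 5, while Tbx1 was detected in 3, Nrp2 in 2 and Pdpn in 1. The set was noticed in these data and was not tested. Prox1 is known from venous valves as well as lymphatics, and the rule does not separate these endothelia.

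**Figure D2:**
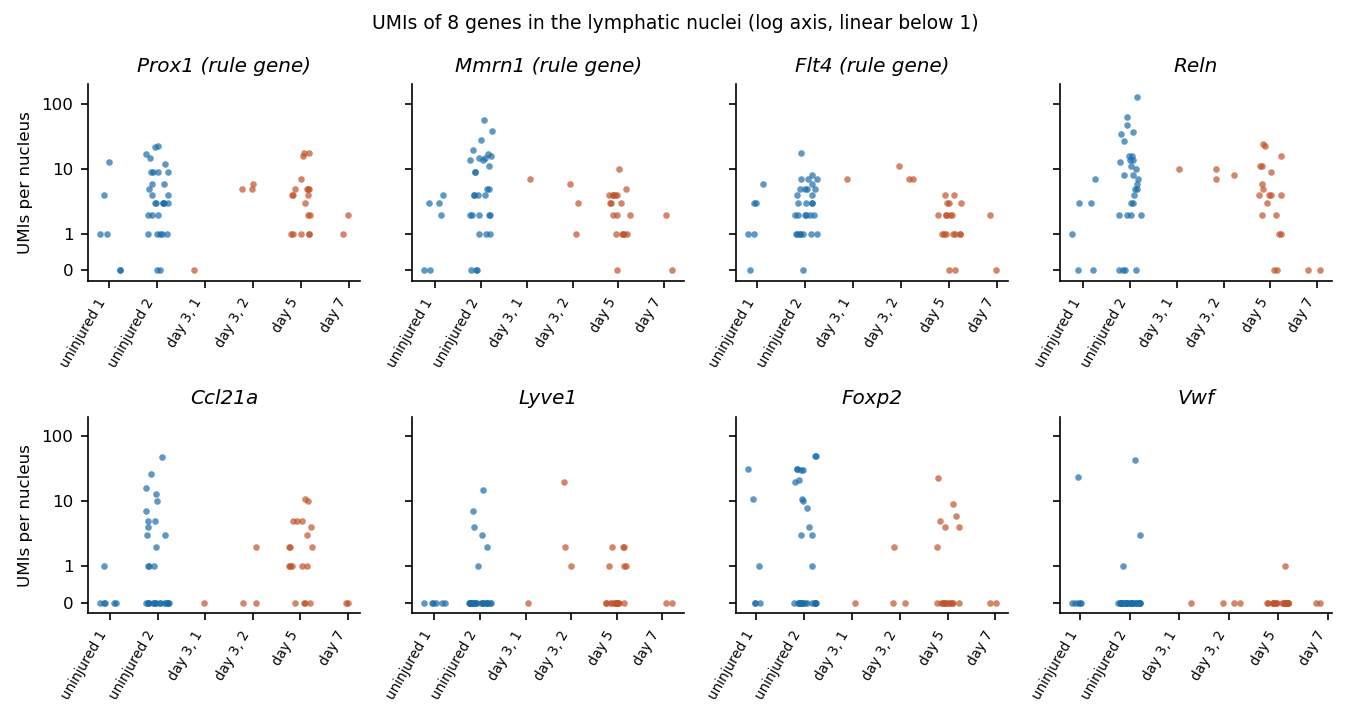
UMIs per nucleus (log axis, linear below 1) of the 3 rule genes and 5 others in each lymphatic nucleus, by library, with uninjured libraries in blue and fractured ones in orange. Reln is present in most nuclei of each library but day 7, Lyve1 and Foxp2 in some, and Vwf in 5 nuclei, with 24 and 43 UMIs in the highest.

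Other cell types left traces in these nuclei, as in the other nuclei of the same libraries. Taking at least 2 markers and 3 UMIs as the limit, 25 of the 61 also met another class, mostly stroma (9 of 19 nuclei at day 5) or skeletal muscle (10 of 30 in uninjured replicate 2). Blood endothelial nuclei did so as well, with stroma in 100 of 176 at day 5 and muscle in 66 of 213 in uninjured replicate 2. Ttn, the muscle gene titin, had a UMI in 26 of 30 lymphatic nuclei of uninjured replicate 2 and in 144 of 213 blood nuclei. Of the skeletal muscle list 2 of 7 genes were tested and both, Ttn and Neb, were lower in lymphatic than in blood nuclei, but the Ttn change turned to 0.44 (log2) once nuclei meeting another class were removed. None of the 5 stroma genes tested was called. The immune list was at 0 in uninjured replicate 1, day 5 and day 7, with Ptprc absent by the rule. No doublet caller was run, and the part of these UMIs in the results was not tested beyond the fits without such nuclei.

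To learn how lymphatic nuclei differed from blood endothelium of the same tissue, UMIs were summed per library and class and compared within libraries. Only uninjured replicate 1, uninjured replicate 2 and day 5 had 5 or more lymphatic nuclei, which gave 55 lymphatic nuclei with 235389 UMIs and 517 blood nuclei with 2212648 UMIs. Levels are counts scaled to all UMIs of the class in the library (CPM), given here in the order uninjured replicate 1, uninjured replicate 2, day 5. The first library had 20309 lymphatic UMIs, so that 1 UMI there equals 49.2 CPM. In that library 17024 of the lymphatic UMIs (83.8%) came from the 2 nuclei with neither Mmrn1 nor Reln, so its lymphatic CPM values describe mostly those nuclei. In a fit without the nuclei lacking Mmrn1, chosen after seeing the data, that library dropped out, and uninjured replicate 2 and day 5 gave 122 higher and 137 lower genes. The rule genes of both classes were left out of the test. Of 4547 genes tested, 113 (2.49%) were higher and 146 (3.21%) lower in lymphatic nuclei at an adjusted p under 0.05 (edgeR quasi-likelihood test with the library as a block), 5.7% in either direction, and 640 had an unadjusted p under 0.05. Calls were 83 and 98 by DESeq2, and 24 and 15 without the block. Without uninjured replicate 2 there were 33 and 51, without uninjured replicate 1 there were 208 and 265, and without day 5 there were 82 and 79. None of the 259 genes was called in the opposite direction in any of these fits. The shares of 2.49% higher and 3.21% lower over all genes tested are the background for every list count.

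Genes of lymphatic identity stood out. Of 17 listed beside the rule genes, 12 passed the filter on low counts, and of these 8 were higher and none lower in lymphatic nuclei, against 2.49% of all genes tested. Their median log2 fold change was 3.67, against -0.0968 over all genes tested. The filter kept genes in part through their level in lymphatic nuclei, so these counts describe the list. Reln (chromosome 5, 21884454 to 22344702) was at 689.3, 3195.5 and 2084.4 CPM in lymphatic nuclei and at 56.9, 15.8 and 20.0 CPM in blood nuclei. All lymphatic values lay above all blood values, and the log2 fold change was 6.05 ± 0.686 (SE; edgeR adjusted p = 2.3e-06). A single nucleus gave 19.2% of the 667 Reln UMIs of all lymphatic nuclei.

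Ccl21a, which draws CCR7-bearing dendritic cells and T cells into lymphatics, had the largest fold change among the higher genes named by rule. It was at 49.2, 949.5 and 865.8 CPM in lymphatic nuclei against 0, 5.56 and 1.25 in blood nuclei, a log2 fold change of 7.89 ± 0.66 (SE; edgeR adjusted p = 3.3e-08). The first of these lymphatic values was a single UMI. Mice carry near-identical Ccl21 copies, and the symbol stands on 2 gene IDs of which 1 had all the UMIs (202 lymphatic, 7 blood), so the copy is uncertain.

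Pdpn, Tbx1 and Piezo2 followed the same order in each library. Pdpn, a membrane mucin that binds platelet CLEC-2, was at 98.5, 216.1 and 288.6 CPM against 0, 6.49 and 11.3 in blood nuclei (log2 fold change 4.92 ± 0.621 SE). Tbx1, a transcription factor gene needed for lymphatic growth, was at 147.7, 222.6 and 400.9 against 33.0, 13.0 and 5.0 CPM (4.21 ± 0.625 SE). Piezo2 was at 443.2, 1067.4 and 833.8 against 47.9, 41.7 and 517.6 CPM. Its call was lost without uninjured replicate 2 (1.52, edgeR adjusted p = 3.5e-01) and without the nuclei lacking Mmrn1 (2.7, edgeR adjusted p = 1.9e-01). Piezo2 was detected in 53.5% of capillary blood nuclei, those led by Kdr and Aplnr, so it was not a gene of lymphatic nuclei alone. Fgl2, a secreted immunoregulatory protein gene, was called too, but it was at 0 against 21.0 CPM in uninjured replicate 1 and its call was lost without day 5 (edgeR adjusted p = 3.2e-01). Nrp2, Sox18, Nr2f2 and the integrin gene Itga9 did not pass. Nrp2 was at 147.7, 1008.4 and 1427.0 CPM in lymphatic and 527.3, 679.4 and 633.8 in blood nuclei. None of its 3 lymphatic UMIs in uninjured replicate 1 was in the 2 nuclei with neither Mmrn1 nor Reln, which lower the value there. Venous nuclei, those led by Vwf and Selp, held Nrp2 in 77.7% of cases, against 80.3% of lymphatic nuclei. Lyve1, Nts, Gata2, Foxc2 and Hhex were too sparse to test. Over the 6 libraries Gata2 was at 15.1 CPM in lymphatic and 48.3 in blood nuclei, and Hhex at 11.4 and 25.8. Nts, at 18.9 and 5.53, and Foxc2, at 22.7 and 3.69, went the other way. Lyve1 had 64 UMIs in lymphatic and 6 in blood nuclei over the 6 libraries.

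Among guidance genes, Sema3d and Sema3a, which the identity list also holds, were higher in lymphatic nuclei. Of 10 semaphorin, plexin and ephrin genes 9 were tested, with 3 higher and 1 lower, against 2.49% and 3.21% of all genes tested. The median log2 fold change of the list was 0.51. Sema3d, a secreted class 3 semaphorin, was at 295.4, 1335.8 and 817.7 CPM against 33.0, 57.5 and 20.0 (log2 fold change 4.42 ± 0.52 SE; edgeR adjusted p = 4.2e-06). Sema3a, which acts on lymphatic valve formation through Nrp1, was at 98.5, 844.7 and 946.0 CPM against 8.99, 11.1 and 80.0 (4.54 ± 0.599 SE). Both genes were thus higher in lymphatic nuclei of every library fitted, while Sema3f and Sema6a were not called. The ephrin ligand gene Efnb2 was higher by 1.61 ± 0.438 (SE), a call lost without either uninjured library, by DESeq2 and after thinning to 1000 UMIs. It was also lost without the nuclei lacking Mmrn1 (1.26, edgeR adjusted p = 2.6e-01). In uninjured replicate 1, 21 of the 23 Efnb2 UMIs were in the 2 nuclei with neither Mmrn1 nor Reln. The semaphorin receptor gene Plxnd1 was lower, at 49.2, 52.4 and 48.1 CPM against 263.7, 202.0 and 296.3. The Plxnd1 call was lost without uninjured replicate 2 or day 5.

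Of the 11 collecting vessel and valve genes, 5 were tested and 1 was called. This was Foxp2 (chromosome 6, 14901349 to 15441977), at 2117.3, 1990.7 and 849.8 CPM in lymphatic nuclei against 191.7, 48.2 and 63.8 in blood nuclei (log2 fold change 4.08 ± 0.498 SE; edgeR adjusted p = 5.3e-06). The lymphatic values again lay above all blood values, but in uninjured replicate 1 the 2 nuclei with neither Mmrn1 nor Reln held 42 of the 43 Foxp2 UMIs. Without the nuclei lacking Mmrn1 the log2 fold change was 4.55 (edgeR adjusted p = 1.7e-03, from 2 libraries). Of the 4 lymphatic capillary genes 2 were tested and both, Ccl21a and Piezo2, were higher, with the limits on the Piezo2 call given above.

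Of the 8 genes of the VEGF-C axis 6 were tested, with none higher and 3 (Vegfc, Flt1 and Nrp1) lower, against 3.21% of all genes tested. The other 3, Nrp2, Vegfd and Kdr, were not called and had log2 fold changes of 0.22, 0.28 and 0.91. Vegfc, the growth factor of lymphatic endothelium (chromosome 8, 54077606 to 54187096), had 0, 3 and 0 UMIs in lymphatic nuclei, or 0, 19.6 and 0 CPM. In blood nuclei it was at 296.6, 583.0 and 342.5 CPM. The summed level was 35.5-fold higher in blood than in lymphatic nuclei (95% exact counting interval 12.1 to 172.6; edgeR adjusted p = 1.6e-05), and arterial blood nuclei, led by Gja5 and Sema3g, held it in 78.6% of cases. Vegfc was thus rare in lymphatic nuclei of all 3 libraries. Flt1 was at 590.9, 157.2 and 0 CPM in lymphatic nuclei against 1066.6, 1142.8 and 1213.9 in blood nuclei (log2 fold change -2.96 ± 0.63 SE), with most of its lymphatic UMIs in the 5 nuclei without Mmrn1 and Reln. Nrp1 was lower by -2.40 ± 0.571 (SE), a call lost without day 5. Kdr (VEGFR-2) did not pass, at 147.7, 641.7 and 224.5 against 86.9, 160.3 and 248.8 CPM.

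**Figure D3:**
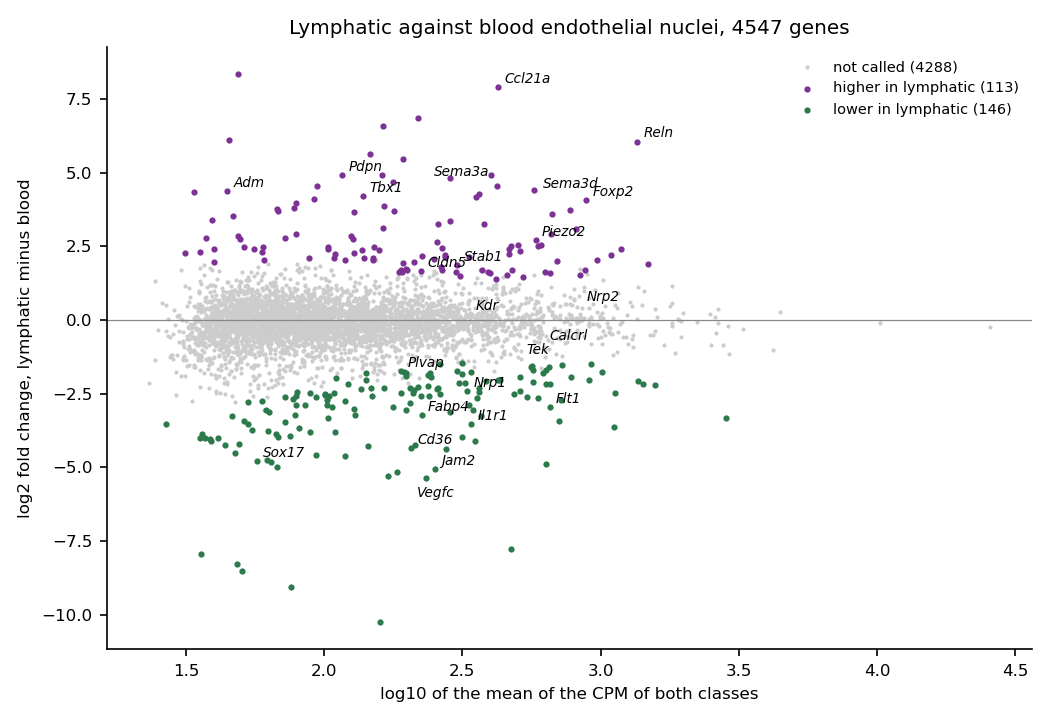
Log2 fold change of lymphatic over blood endothelial nuclei against the log10 of the mean CPM of both classes, for the 4547 genes tested, with called genes in purple (113 higher) and green (146 lower). Reln, Ccl21a, Sema3d and Foxp2 lie far above 0, Vegfc, Jam2 and Cd36 far below, and Nrp2, Calcrl and Tek are not called.

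Receptor systems shared by both endothelia gave few calls. None of the 4 angiopoietin and Tie genes tested was called. The receptor gene Tek (Tie2) was at 344.7, 248.8 and 384.8 CPM against 749.0, 729.4 and 731.3, a log2 fold change of -1.31 ± 0.421 (SE; edgeR adjusted p = 0.0718). Of the adrenomedullin genes 4 of 6 were tested and only the ligand gene Adm was higher, at 98.5, 91.7 and 64.1 CPM against 0, 0.927 and 10.0 (log2 fold change 4.37 ± 0.726 SE). That difference rested on 20 UMIs in 9.84% of the lymphatic nuclei of all 6 libraries, and the call was lost without the nuclei lacking Mmrn1 (3.43, edgeR adjusted p = 1.1e-01). Its receptor gene Calcrl was at 837.1, 884.0 and 497.1 CPM against 554.3, 760.9 and 757.6 and did not pass. None of the 4 Notch genes tested was called. Of the 10 leukocyte trafficking genes 5 were tested, and only Ccl21a was higher.

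Of 15 blood endothelial genes listed, 9 were tested, with none higher, 5 lower and 4 not called, against 3.21% lower of all genes tested. The median log2 fold change of the list was -1.74. Sox17, an arterial transcription factor gene, had 1 UMI in lymphatic nuclei, and its summed level was 25.9-fold higher in blood nuclei (95% exact counting interval 4.60 to 1025.2). Cd34 was at 0, 26.2 and 0 CPM in lymphatic nuclei against 128.8, 246.5 and 173.8 in blood nuclei (log2 fold change -3.80 ± 0.739 SE). Plvap, of the diaphragms of fenestrae, and Vwf were called lower by -1.74 and -1.58 on the log2 scale, calls that were each lost without uninjured replicate 2 or day 5. The 5 nuclei with neither Mmrn1 nor Reln held 70 of the 72 Vwf UMIs, and the Vwf change was -5.99 without the nuclei lacking Mmrn1. The Sox17 call was lost without the same libraries. Kdr, Emcn, Eng and Selp did not pass.

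Of the 8 junction genes 7 were tested, with 1 higher, 2 lower and 4 not called, against 2.49% higher and 3.21% lower of all genes tested. Jam2, an adhesion molecule of venules through which leukocytes pass, was at 0, 26.2 and 0 CPM against 440.4, 554.2 and 418.8 (log2 fold change -5.06 ± 0.675 SE; edgeR adjusted p = 1.6e-05). Esam was lower and Cldn5, the tight junction claudin of endothelium, higher, but both calls were lost without uninjured replicate 2 or day 5. Of the 8 lipid genes 5 were tested, with 2 lower and 3 not called. The fatty acid transporter gene Cd36 was at 0, 26.2 and 16.0 CPM against 446.4, 440.2 and 301.3 (log2 fold change -4.34 ± 0.633 SE), and the fatty acid binding protein gene Fabp4 was at 49.2, 78.6 and 0 against 515.3, 501.4 and 202.5 CPM (-3.23 ± 0.58 SE). Both stayed below every blood value in each library. Among the scavenger and hyaluronan receptor genes 3 of 7 were tested. Cd36 and Scarb1 were lower and Stab1, a scavenger receptor gene of lymphatic and sinusoidal endothelium, was higher by 1.85 ± 0.472 (SE), with the Stab1 call lost without uninjured replicate 2 or day 5 and the Scarb1 call lost without uninjured replicate 2.

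Of the 16 inflammatory genes 6 were tested, and the interleukin-1 receptor gene Il1r1 was lower in lymphatic nuclei, at 197.0, 58.9 and 0 CPM against 605.2, 738.7 and 483.8 (log2 fold change -3.54 ± 0.601 SE; edgeR adjusted p = 3.3e-04). It was most frequent in venous nuclei, in 78.2% of them, against 11.5% of lymphatic nuclei. The nuclei with neither Mmrn1 nor Reln held all 4 lymphatic Il1r1 UMIs of uninjured replicate 1 and 3 of the 9 in uninjured replicate 2. Among basement membrane genes 9 of 9 were tested and Lama5 and Col4a2 were lower, both calls lost without uninjured replicate 2 or day 5. Lama4, a vascular laminin chain, was at 443.2, 1630.5 and 1603.4 CPM against 185.8, 362.4 and 878.8 and did not pass (log2 fold change 1.36 ± 0.438 SE; edgeR adjusted p = 0.0723). Of the 12 secreted growth factor genes 11 were tested, with Reln higher and Vegfc and Pdgfd lower. The Pdgfd call was lost without uninjured replicate 2.

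Beyond the lists, the 10 largest differences in each direction were taken among called genes with at least 100 CPM in the higher class and the same direction in all 3 libraries. Those higher were Ccl21a, Apba2, Sh3gl3, Reln, Il7, Fgf12, Kif26b, Pdpn, Ankrd6 and Pard6g. Il7, the interleukin that sustains lymphocytes, was at 49.2, 360.2 and 192.4 CPM against 5.99, 6.49 and 1.25 (log2 fold change 5.63 ± 0.696 SE; edgeR adjusted p = 6.1e-06). Apba2, an adaptor of synaptic vesicle release, was at 98.5, 419.1 and 577.2 CPM against 3.0, 3.71 and 2.5 (6.85 ± 0.647 SE). Pard6g and Ankrd6 act in cell polarity. Ankrd6, known as diversin in planar polarity, was at 935.5, 150.6 and 497.1 CPM against 3.0, 13.9 and 13.8 (4.91 ± 0.581 SE). Kif26b, a kinesin, was at 1871.1, 628.6 and 753.6 against 50.9, 5.56 and 60 CPM. In uninjured replicate 1, 18 of 19 Ankrd6 and 30 of 38 Kif26b UMIs were in the 2 nuclei with neither Mmrn1 nor Reln, and without the nuclei lacking Mmrn1 the log2 fold changes were 4.33 and 4.91. All 10 genes kept their call in each fit without 1 library that tested them, and 7 of the 10 were at 1 to 3 UMIs in uninjured replicate 1.

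Those lower were Tacr1, Samd5, Eepd1, Dach1, Vegfc, Ccdc85a, Zfp366, Jam2, Pik3c2b and Entpd1. Tacr1, the substance P receptor, had no UMI in the 55 lymphatic nuclei and was at 140.8, 507.0 and 137.5 CPM in blood nuclei. This was 25-fold lower when 3 UMIs over the lymphatic class are taken as the floor, and the 95% exact counting interval began at 20.2-fold. The Tacr1 call was lost by DESeq2 and without uninjured replicate 2. Dach1, a transcription factor gene of coronary and arterial endothelium, had 1 UMI in lymphatic nuclei against 503.3, 925.0 and 1153.9 CPM in blood nuclei, a summed level 222.2-fold higher in blood (95% exact counting interval 39.8 to 8782.0; edgeR adjusted p = 5.7e-07). Entpd1, the ectonucleotidase CD39 that breaks down extracellular ATP, was at 246.2, 13.1 and 16.0 CPM against 1087.6, 1339.2 and 1143.9 (log2 fold change -4.89 ± 0.667 SE). Dach1 and Entpd1 lay below every blood value in each library. For Tacr1, Samd5, Eepd1 and Pik3c2b, the floor of 3 UMIs equals 147.7 CPM in uninjured replicate 1. This is above their blood values there, at 140.8, 128.8, 98.9 and 116.8 CPM, so their direction in uninjured replicate 1 is not resolved. In that library all 5 Entpd1 UMIs were in the 2 nuclei with neither Mmrn1 nor Reln. Samd5 and Pik3c2b lost their calls without uninjured replicate 2.

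**Figure D4:**
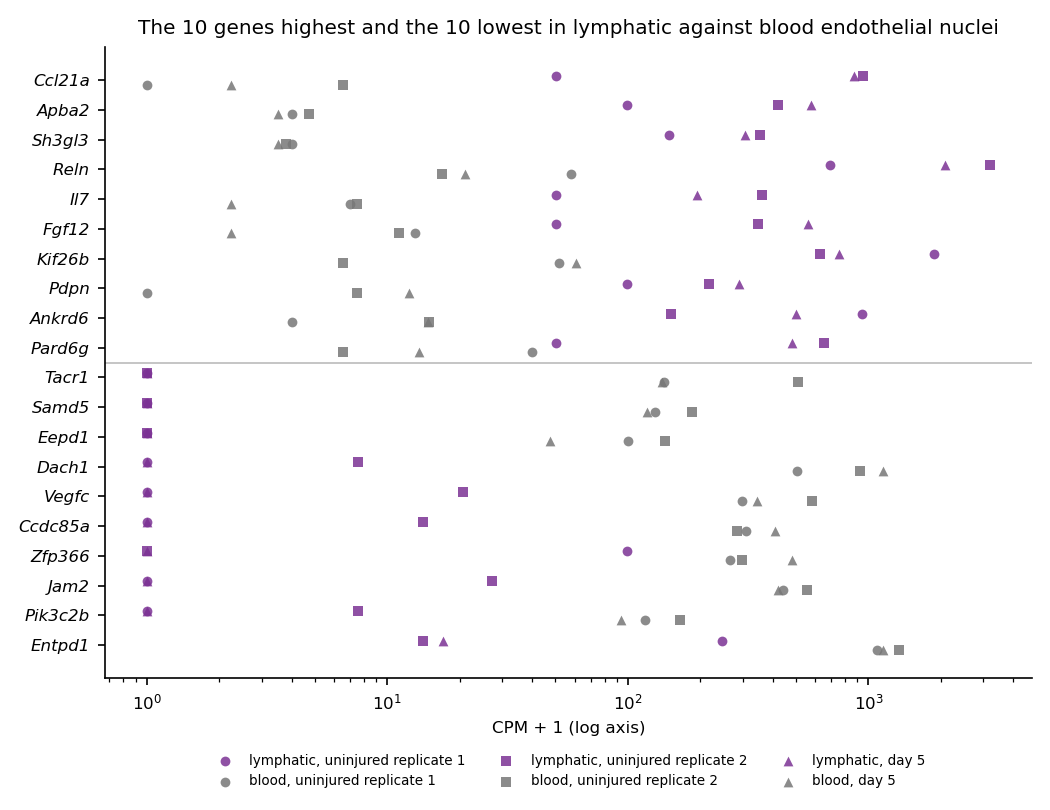
CPM + 1 (log axis) of the 10 genes with the largest differences in each direction, in lymphatic (purple) and blood (grey) endothelial nuclei of uninjured replicate 1 (circles), uninjured replicate 2 (squares) and day 5 (triangles). In each library the purple point lies right of the grey point for the upper 10 genes, from Ccl21a to Pard6g, and left of it for the lower 10.

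The blood class mixes vessel types, so the comparison was repeated against the 211 venous nuclei, which gave 70 higher and 96 lower genes. The calls of Flt1, Nrp1, Stab1, Pdgfd, Col4a2, Fgl2 and Ttn were lost there. At a fixed depth of 1000 UMIs per nucleus, which 51 lymphatic and 564 blood nuclei reached, Reln was detected in 72.5% of lymphatic against 2.3% of blood and 1.56% of stromal nuclei (83.6%, 3.71% and 3.05% without thinning). Ccl21a was detected in 35.3%, 0.355% and 0.17%. Sema3d was detected in 60.8%, 1.24% and 5.97%, and Foxp2 in 43.1%, 4.61% and 11.5%. Whether the low shares in blood and stromal nuclei come from free RNA was not tested.

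The response of lymphatic nuclei to fracture could not be tested, because day 5 was the only fractured library with 5 or more of them, and the same holds for a difference between the lymphatic and blood responses. Values are therefore given per library with 95% exact Poisson intervals, which cover counting error only. Reln was at 689.3 (376.9 to 1156.6) and 3195.5 CPM (2918.3 to 3492.0) in the uninjured replicates, 1813.2 (869.5 to 3334.6) and 1153.5 (746.5 to 1702.8) in the day 3 replicates and 2084.4 (1741.5 to 2475.1) at day 5. No Reln UMI was found among 1560 UMIs at day 7, which allows up to 2364.7 CPM. The uninjured libraries differed from each other by more than either did from day 5. In uninjured replicate 1, however, the 2 nuclei with neither Mmrn1 nor Reln held 17024 of the 20309 UMIs. All 14 Reln UMIs were among the 3285 UMIs of its other nuclei. In uninjured replicate 2, which also had 2 such nuclei, all 488 Reln UMIs were among the 132471 UMIs of the others. The low value of uninjured replicate 1, and the order of the uninjured values and day 5, thus depend on whether these nuclei are counted. Foxp2 was at 1990.7 CPM in uninjured replicate 2, 0 and 92.3 (11.2 to 333.3) in the day 3 replicates and 849.8 (636.6 to 1111.6) at day 5. Its value of 2117.3 in uninjured replicate 1 left 1 UMI without the 2 nuclei described above. In day 3 replicate 2, Lyve1 was at 1061.2 CPM (672.7 to 1592.4) and Pdpn at 1245.8 CPM (821.0 to 1812.6), against 144.3 and 288.6 CPM at day 5. A single nucleus, which also met the stroma class, held 20 of these 23 Lyve1 UMIs and 25 of the 27 Pdpn UMIs.

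Cell cycle genes gave few UMIs in lymphatic nuclei. Over 12 proliferation genes the summed level was 49.2 and 85.1 CPM in the uninjured replicates (1 and 13 UMIs), 544.0 and 92.3 in the day 3 replicates (3 and 2 UMIs), 48.1 (9.92 to 140.6) at day 5 and 1282.1 at day 7 (2 UMIs). In blood nuclei the sum was 38.9 and 40.8 CPM uninjured, 460.0 and 614.2 at day 3, 573.8 (522.5 to 628.8) at day 5 and 213.1 at day 7. At day 5 the intervals of the 2 classes were thus well apart in the same library, whereas in the uninjured libraries both classes were low. These intervals do not cover the spread between nuclei. At day 3 and day 7, with 2 or 3 lymphatic UMIs per library, the order of the classes was mixed. Mki67, which marks dividing cells, had no UMI in lymphatic nuclei of any library, and the 19 nuclei at day 5 limit what can be seen.

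Basement membrane genes, the laminins, collagen IV chains, nidogens and perlecan, summed to 1083.3 (678.9 to 1640.1) and 2730.6 CPM (2474.8 to 3005.7) in uninjured lymphatic nuclei. They summed to 2357.2 and 6736.5 at day 3, 3238.9 (2807.6 to 3717.7) at day 5 and 3846.2 (1411.5 to 8371.5) at day 7. The uninjured replicates and the day 3 replicates each differed by more than 2-fold between themselves. In blood nuclei the sum was 1213.4 and 1431.9 CPM uninjured and 4177.9 to 5004.2 in the 4 fractured libraries. Inflammatory genes summed to 1231.0 and 1021.5 CPM in uninjured lymphatic nuclei and 913.9 (692.2 to 1184.1) at day 5, with overlapping intervals, and immediate-early and stress genes to 98.5, 150.6 and 48.1 CPM.

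**Figure D5:**
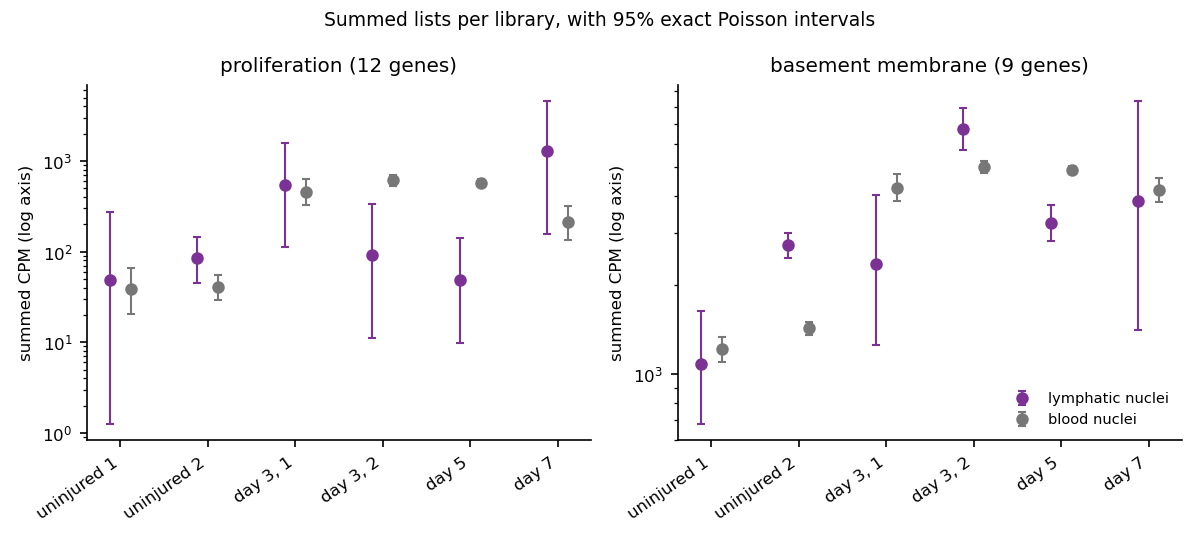
Summed CPM (log axis) of 12 proliferation and 9 basement membrane genes in lymphatic (purple) and blood (grey) endothelial nuclei of each library, with 95% exact Poisson intervals that cover counting error only. At day 5 the proliferation sum is 48.1 CPM in lymphatic and 573.8 in blood nuclei, and the wide purple intervals at day 3 and day 7 reflect 1 to 3 nuclei.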

How the data were processed

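The authors deposited raw UMI counts per gene and barcode, made with Cell Ranger Count and mapped to mm10 with introns and exons per the labels' build field and the study's methods; 1 protocol label names a human build instead. The file headers give version 6.0.0 for uninjured replicate 1, day 5 and day 7, and 7.1.0 for the other 3 libraries. The 655 to 4712 barcodes per library held 1499281 to 29796296 UMIs, and 30406 gene IDs were shared by all files. The authors removed myogenic nuclei, which were kept here. The count matrices carry no cell annotation, so classes were set by marker UMIs. Members and gene lists were chosen with earlier results of these data known. Counts were summed per library and class and tested with edgeR 4.0.16 (filterByExpr, TMM, quasi-likelihood, Benjamini-Hochberg, after a check on simulated counts), with the library as a block because both classes come from the same pool of mice. DESeq2 1.42.0 was an alternative. Shares were compared by exact permutation over libraries. Gene coordinates are GENCODE vM21 (GRCm38). Named genes were list members and, among called genes, the 10 largest fold changes in each direction with at least 100 CPM and the same direction in every library. At 235389 lymphatic UMIs, 3 UMIs correspond to 12.7 CPM.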

Additional observations from a re-analysis of the deposited data

How the results depend on the processing

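The 113 higher and 146 lower genes moved by over 1.5 times under several settings. They were 24 and 15 without the library block and 70 and 96 against venous nuclei, where 2763 genes were tested. After thinning to 1000 UMIs they were 53 and 71, where 1443 genes were tested. Lower genes were 228 without the filter on low counts (18403 genes tested), and higher genes were 63 with all 6 libraries, an alternative chosen after seeing the data like the fit without the nuclei lacking Mmrn1 (122 and 137, from 2 libraries). Leaving out 1 library gave 33 to 208 higher and 51 to 265 lower genes. Of 634 refits of the 47 named or listed called genes, 534 kept their call, 99 kept only their direction and 1 reversed: Ttn, at 0.44 (log2) once nuclei meeting another class were removed. The difference in the share of lymphatic nuclei among endothelial nuclei, fractured minus uninjured, ranged from -5.88 to 1.94 percentage points on leaving out 1 library, with 1.94 without uninjured replicate 2. The cause was not tested. The alternatives planned for the response to fracture and for its difference between classes were not run, because only 1 fractured library had 5 or more lymphatic nuclei. Depth limits sparse genes such as Lyve1, and day 3 and day 7 held 1 to 3 lymphatic nuclei per library.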

Other observations

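Further called genes, chosen after their values were seen, lay outside the lists. Values run in the order uninjured replicate 1, uninjured replicate 2, day 5. Maf, a transcription factor gene of developing lymphatic valves and vessels, was at 197.0, 798.9 and 593.3 CPM in lymphatic nuclei against 3.0, 28.7 and 51.3 in blood nuclei (log2 fold change 4.29 ± 0.522 SE; edgeR adjusted p = 5.3e-06). Hgf, the hepatocyte growth factor gene, was at 492.4, 360.2 and 128.3 CPM against 15, 22.2 and 16.3 (3.85 ± 0.527 SE). In uninjured replicate 1 all 10 Hgf UMIs were in the 2 nuclei with neither Mmrn1 nor Reln. Pcsk6, a proprotein convertase gene, was at 147.7, 635.2 and 930.0 CPM against 5.99, 21.3 and 78.8. Efcc1 had 23 UMIs in lymphatic and 0 in blood nuclei, at least 72.1-fold higher with 3 UMIs over the blood class as the floor. In the other direction, Kitl, the stem cell factor gene, was at 49.2, 52.4 and 16.0 CPM in lymphatic nuclei against 530.3, 695.1 and 672.6 in blood nuclei (-4.11 ± 0.564 SE), and Igfbp7 was at 0, 117.9 and 176.4 against 218.7, 966.7 and 2186.5 CPM. These genes had the same direction in all 3 libraries.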
